A study of Gallus gallus with 6 samples.

Results

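The unfolded protein response and the folding machinery of the endoplasmic reticulum (ER) were followed through 10 genes, taken by symbol from the 15491 genes listed for chicken abdominal fat. ATF6, ERN1 and EIF2AK3 encode the stress sensors of the ER membrane, ATF4 and XBP1 transcription factors that act below them, HERPUD1 a factor of ER-associated degradation, and PDIA3, PDIA4, PDIA6 and P4HB disulphide isomerases. All 10 symbols were listed, and 9 had enough reads to be tested. The fat came from broilers (chickens bred for meat) that were male and of the Ross strain. Between 21 and 35 days of age the heat stress group lived at 32 °C while the thermoneutral group stayed at 22 °C. Both had 50% humidity, individual cages from day 14, 24 h of light a day and the same diet. Each group gave 3 messenger RNA libraries. The labels do not state that a library is 1 chicken, so every p-value here reflects how far libraries differ, which may be technical.

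Proteins that enter the ER are folded by chaperones and by isomerases that form and reshuffle disulphide bonds. When unfolded chains accumulate, IRE1 (encoded by ERN1) splices XBP1 mRNA, PERK (EIF2AK3) slows translation while favouring that of ATF4, and ATF6 is cut in the Golgi to release a transcription factor. Chaperones, disulphide isomerases and degradation factors are the classical target genes in mammals. Much of this control acts on splicing, translation and cleavage, which gene-level read counts do not measure. In bulk fat, fewer cells of a type and less RNA per cell cannot be told apart.

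Depth ran from 30673333 to 35836632 counts in thermoneutral libraries and from 38336086 to 45163458 in heat stress libraries, so it did not overlap between the groups. Differences were tested on these counts with edgeR's quasi-likelihood test, and levels are given as CPM, the counts in each 1000000 of the TMM-scaled library total. Adipocyte markers were abundant in every library: the 14 listed summed to 21144 to 28270 CPM in thermoneutral and 24624 to 28321 CPM in heat-stressed fat. Thermoneutral 2 stood apart in carrying mRNA of digestive enzymes made by the pancreas, an organ rich in ER. AMY2A (pancreatic amylase) stood at 2032 CPM there against 0.256 to 22.9 CPM in the other libraries, and CELA2A (an elastase) at 327 CPM against 0.0652 to 1.37 CPM. PDIA2, the disulphide isomerase of the pancreas, had 104 counts in thermoneutral 2 and 3 to 12 counts elsewhere. These 3 were the listed genes of 15 pancreas markers. Values of the members without thermoneutral 2 are given with the disulphide isomerases.

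No difference in the mRNA of these genes was called between heat-stressed and thermoneutral fat. None of the 9 tested members passed an FDR of 0.05 in edgeR (0 of 9, FDR 0.389 to 0.905), where 0.176% of all 14743 genes tested did. At an unadjusted p under 0.05 the count was also 0 of 9, against 18.8% of all genes. DESeq2 called 0 of 9 after adjustment, against 9.37% of all genes, and 1 (P4HB) at an unadjusted p under 0.05. Log2 fold changes (heat stress over thermoneutral) ran from -0.23 for PDIA4 to 0.17 for the gene labelled ATF6, with a median of -0.09 against -0.005 for all genes tested. On counts 8 of the 9 were negative, against 50.6% of all genes tested, but on log2(TPM + 1) only 4 were. On that TPM scale the median of all genes was itself higher, at 0.076. The 95% intervals of the 9 fold changes together ran from -0.56, a 1.48-fold decrease, to 0.40, a 1.32-fold increase.

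**Figure D1:**
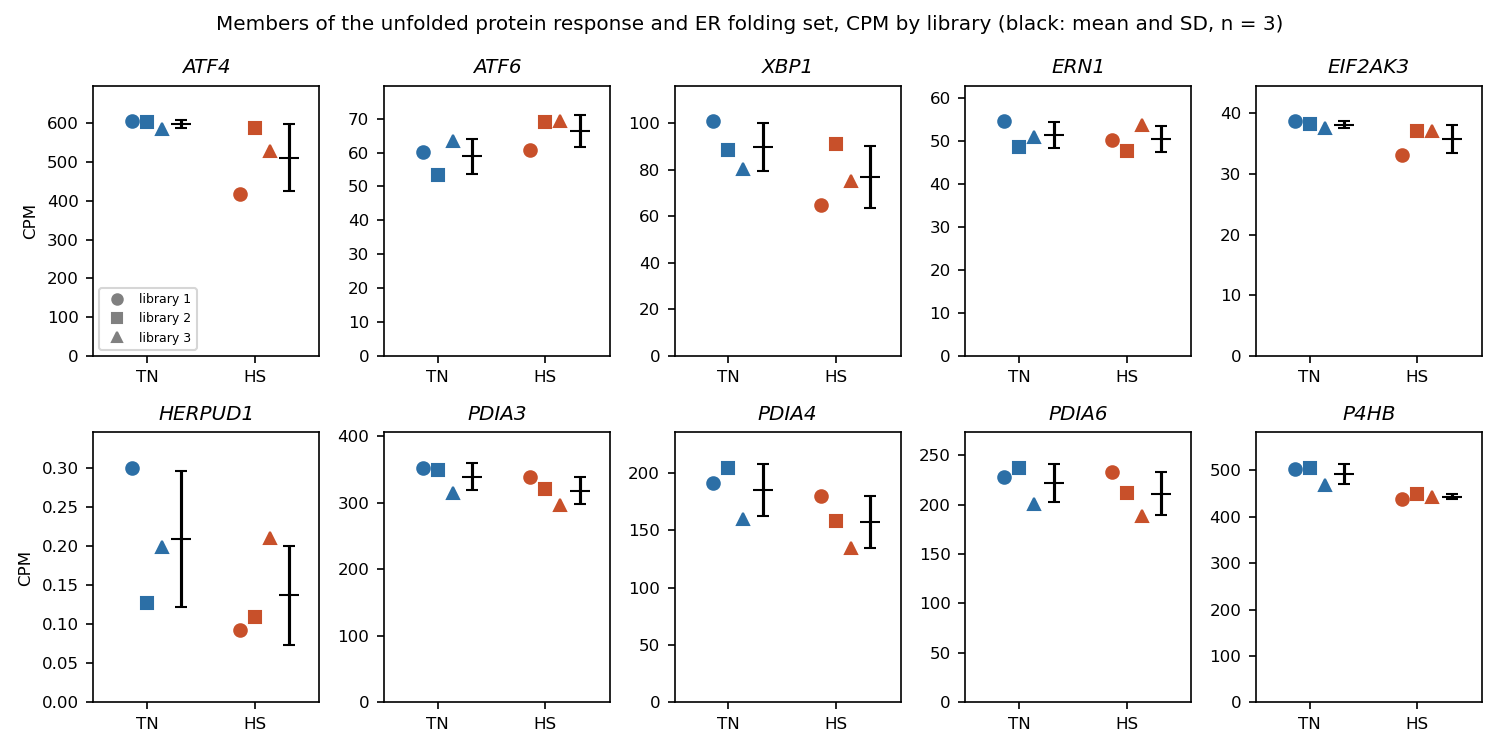
CPM (vertical axes from 0) of each member in the 3 thermoneutral (TN, blue) and 3 heat stress (HS, red) libraries, with the mean and SD (n = 3) in black and symbol shape for the library number. The groups overlap for every member except EIF2AK3 and P4HB, where all heat stress libraries lie below all thermoneutral ones, and heat stress 1 is the lowest point for ATF4 (417 CPM) and XBP1 (64.8 CPM).

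The 3 sensors were present at moderate levels. ERN1 (gene ID 417414), the kinase and endoribonuclease IRE1, stood at 54.7, 48.7 and 51.1 CPM in thermoneutral 1, 2 and 3 and at 50.3, 47.6 and 53.8 CPM in heat stress 1, 2 and 3. Its groups overlapped throughout, and its log2 fold change was -0.03 ± 0.09 (SE; FDR = 0.905), with a 95% interval of -0.23 to 0.18. EIF2AK3 (gene ID 422930), the kinase PERK that phosphorylates the initiation factor eIF2 alpha, was at 38.7, 38.15 and 37.5 CPM at 22 °C and at 33.1, 37.0 and 37.1 CPM under heat. All 3 heat stress libraries lay below the thermoneutral ones, with thermoneutral 3 and heat stress 3 nearly level. The log2 fold change was -0.09 ± 0.09 (FDR = 0.618). On the authors' TPM scale the groups overlapped, at 18.6 to 18.9 TPM at 22 °C and 17.3 to 19.9 TPM under heat.

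The gene that the deposited table labels ATF6 (gene ID 424365) was the only tested member with a positive fold change on counts. RefSeq's gene table for the later build GRCg7b gives the same ID, with both transcript models, the symbol ATF6B. The gene counted is the same in both, and only which of these related sensors it is called depends on the annotation. Its values were 60.2, 53.3 and 63.3 CPM at 22 °C and 60.9, 69.0 and 69.2 CPM under heat. In CPM, heat stress 2 and 3 lay above every thermoneutral library and heat stress 1 did not. On the authors' TPM scale all heat stress libraries lay above all thermoneutral ones, at 32.6 to 37.9 TPM against 27.0 to 32.1 TPM. That scale was itself shifted, with a median of all genes of 0.076 on log2(TPM + 1). The share of all genes without overlap in TPM was not counted. The log2 fold change was 0.17 ± 0.10 (FDR = 0.398), and 0.10 without thermoneutral 2, the lowest library. MBTPS1, the first of the Golgi proteases that release ATF6, had a log2 fold change of -0.18 ± 0.09 (FDR = 0.335), with every heat stress library (117 to 137 CPM) below every thermoneutral one (142 to 151.5 CPM). In TPM its groups overlapped (57.9 to 69.9 under heat, 65.1 to 71.3 at 22 °C). Of the 9 other sensors and transcription factors tested, 0 were higher and 1 lower at an unadjusted p under 0.05, against 9.56% and 9.2% of all genes. That gene, CREB3L1, a membrane-bound relative of ATF6, gave -0.26 ± 0.10 (FDR = 0.209), and NFYC, a subunit of the factor that binds beside ATF6, gave -0.12 ± 0.10 (FDR = 0.603).

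The 2 transcription factors shared a pattern across the heat stress libraries. ATF4 (gene ID 395693), which drives genes of amino acid supply and redox defence, was at 605, 603 and 585 CPM at 22 °C and at 417, 587 and 529 CPM under heat. The thermoneutral libraries lay close together, while heat stress 1 and 3 lay below all of them and heat stress 2 just inside their range. ATF4 averaged 598 ± 10.9 CPM and 511 ± 86.1 CPM (SD, n = 3 each), a log2 fold change of -0.23 ± 0.14 (FDR = 0.425) that was -0.10 without heat stress 1. XBP1 (gene ID 416918), which in its spliced form drives ER expansion and degradation genes, was at 101, 88.6 and 80.2 CPM at 22 °C and at 64.8, 91.2 and 75.2 CPM under heat. Heat stress 2 lay within the thermoneutral range and heat stress 1 and 3 below it. The log2 fold change was -0.22 ± 0.15 (FDR = 0.463), -0.11 without heat stress 1 and -0.36 without heat stress 2. The counts do not separate spliced from unspliced XBP1.

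HERPUD1 (gene ID 415644), a membrane protein that organises ER-associated degradation and a strong stress target in mammals, was close to unmeasured. It had 9, 4 and 7 counts in thermoneutral libraries and 4, 5 and 8 counts in heat stress libraries, too few for the test. In the authors' deposited table its fold was 1.53 lower at an unadjusted p of 0.503, and the adjusted p was blank. The deposited table pairs this ID with 1 transcript model, and RefSeq's GRCg7b gene table pairs it with 4 others and shares none. HERPUD2, its paralogue, was at 97.6 to 102 CPM in thermoneutral fat and had a log2 fold change of -0.06 ± 0.07.

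The disulphide isomerases were abundant, and their log2 fold changes on counts ran from -0.23 to -0.07. PDIA3 (gene ID 373899, ERp57), which works with calnexin and calreticulin on glycoproteins, was at 353, 349.7 and 316 CPM at 22 °C and at 338, 321 and 297 CPM under heat. Its log2 fold change was -0.09 ± 0.10 (FDR = 0.656). PDIA6 (gene ID 421940), which also damps IRE1 and PERK signalling in mammals, was at 228, 237 and 200.2 CPM against 233, 212 and 189 CPM. The groups overlapped for both genes, and PDIA6 gave -0.07 ± 0.11 (FDR = 0.780).

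PDIA4 (gene ID 420785, ERp72) had the largest fold change of the 9 in size. It stood at 191, 205 and 159.9 CPM at 22 °C and at 179.9, 158 and 135 CPM under heat. Thermoneutral 3 lay below heat stress 1, so the groups overlapped. The log2 fold change was -0.23 ± 0.14 (FDR = 0.419), -0.16 without thermoneutral 2 and -0.13 without heat stress 3. PDIA4, PDIA6 and P4HB were highest in thermoneutral 2, the library with the pancreatic mRNA, whose part in their values was not tested. Without it PDIA6 stood at -0.03, PDIA3 at -0.08 and P4HB at -0.14. ATF4 stood at -0.23, XBP1 at -0.24, ERN1 at -0.07 and EIF2AK3 at -0.10 without it, and the median of the 9 members at -0.10.

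P4HB (gene ID 374091) encodes protein disulphide isomerase itself, which is also the beta subunit of collagen prolyl 4-hydroxylase. It was at 503, 505 and 468 CPM at 22 °C and at 437, 448 and 443 CPM under heat, so every heat stress library was lower. In CPM, P4HB and EIF2AK3 were the 2 of 9 members without overlap on the lower side, against 12.4% of all genes tested. On the higher side 0 of 9 lay without overlap, against 12.6%. On the TPM scale both genes overlapped, P4HB at 359 to 388 TPM at 22 °C and 354 to 373 TPM under heat. P4HB averaged 492 ± 21.2 and 443 ± 5.40 CPM (SD, n = 3 each), a 1.11-fold decrease (log2 fold change -0.15 ± 0.09, FDR = 0.389) that lay between -0.19 and -0.14 when any 1 library was left out. Its catalytic partner P4HA1 was higher in every heat stress library (164 to 167 CPM against 139.6 to 156 CPM; log2 fold change 0.14 ± 0.08, FDR = 0.380). The collagen chaperone SERPINH1 gave 0.41 ± 0.12 (FDR = 0.133) and the lysyl hydroxylase PLOD2 -0.27 ± 0.08 (FDR = 0.160). P3H2, a prolyl 3-hydroxylase, gave -0.40 ± 0.15 (FDR = 0.214). Of the 12 genes of this collagen list tested, 1 was higher and 2 lower at an unadjusted p under 0.05, against 9.56% and 9.2% of all genes. DESeq2 called 1 in each direction.

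Per transcript length, ATF4 was the most abundant member as listed and HERPUD1 the least. The HERPUD1 value rests on 1 transcript model that RefSeq's GRCg7b gene table does not share. On the authors' TPM scale (transcript abundance scaled for length and depth) thermoneutral levels averaged 803 ± 12.2 for ATF4, 374 ± 14.4 for P4HB and 352 ± 19.0 for PDIA3 (SD, n = 3 each). PDIA4 followed at 152 ± 18.5, PDIA6 at 145 ± 12.2 and XBP1 at 105 ± 10.7 TPM. The sensors came last among the tested genes, with the gene labelled ATF6 at 29.6 ± 2.57, ERN1 at 21.2 ± 1.07 and EIF2AK3 at 18.7 ± 0.148 TPM. HERPUD1 stood at 0.504 ± 0.228 TPM. P4HB and PDIA3 overlapped between libraries, as did PDIA4 and PDIA6, while the other neighbours in this order did not. Under heat the TPM order was the same except that PDIA6 (148 ± 16.3) stood above PDIA4 (139 ± 20.8), again with overlap.

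**Figure D2:**
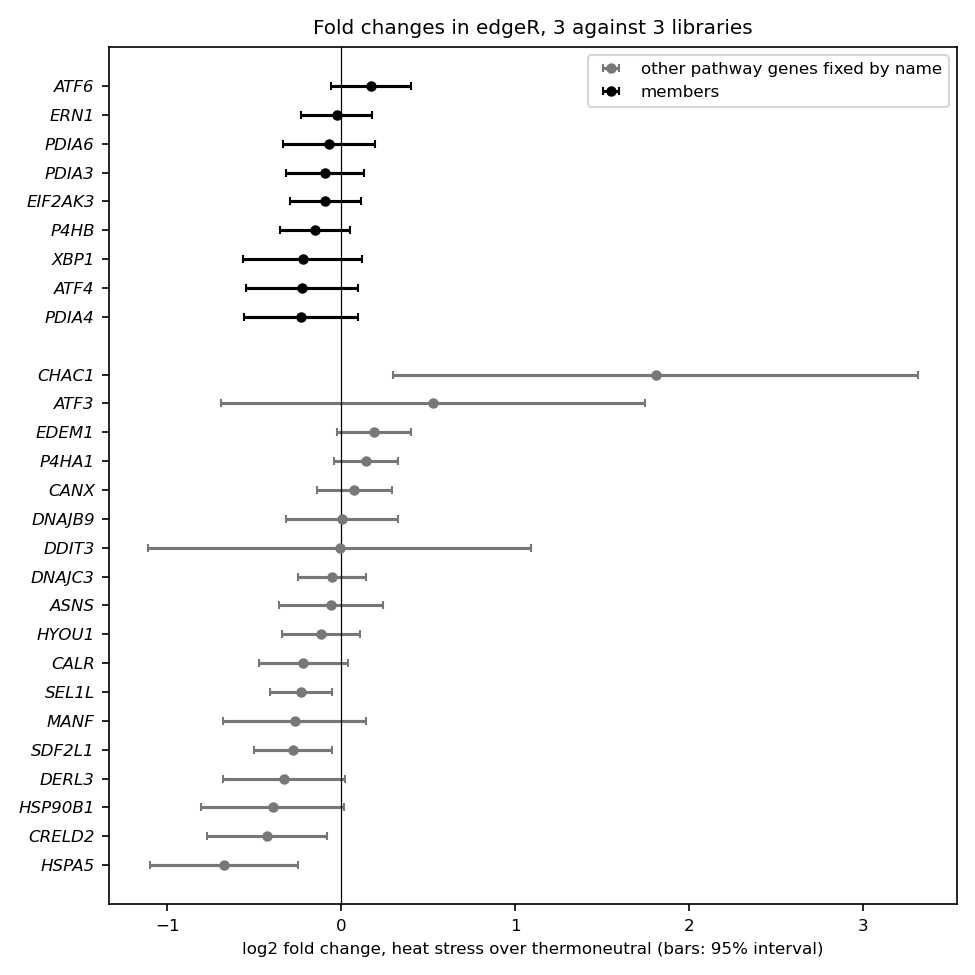
Log2 fold change of heat stress over thermoneutral (horizontal axis) with its 95% interval from edgeR for the 9 tested members (black) and 18 further pathway genes fixed by name (grey). Each member's interval covers 0, and among the others HSPA5 lies farthest to the left (-0.68) and CHAC1 farthest to the right (1.81).

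Around the members, 175 other listed genes of the pathway were read from 9 lists, 173 of them tested. In edgeR 0 of the 173 passed an FDR of 0.05. At an unadjusted p under 0.05, 12 were higher, against 9.56% of all genes tested, and 18 were lower, against 9.2%. DESeq2 called 7 higher and 7 lower, against 9.37% of all genes in both directions together. Their median log2 fold change was -0.04.

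Of 24 ER chaperones tested, 10 had positive and 14 negative log2 fold changes. At an unadjusted p under 0.05, 0 were higher, against 9.56% of all genes, and 4 lower (HSPA5, FKBP9, SDF2L1 and CRELD2), against 9.2%, and DESeq2 called 2 of them lower (HSPA5 and FKBP9). HSPA5, the chaperone BiP that holds the sensors inactive, was at 588, 413 and 423 CPM at 22 °C and at 346, 293 and 252 CPM under heat. Every heat stress library lay below every thermoneutral one, with a log2 fold change of -0.68 ± 0.18 (edgeR FDR = 0.118, DESeq2 adjusted p = 0.00763) and a range of -0.80 to -0.49 when any 1 library was left out. HSP90B1, the ER member of the HSP90 family, was at 685, 545 and 507 CPM against 516, 448 and 357 CPM (-0.40 ± 0.17, FDR = 0.283), with an overlap between thermoneutral 3 and heat stress 1.

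Other genes of the chaperone list lay on both sides, though those fixed by name or picked by p were negative or close to 0. SDF2 (0.46 ± 0.32) and CRELD1 (0.27 ± 0.21), named after their values were seen, had the largest positive log2 fold changes of the list. SDF2L1, a cochaperone, was at 31.7, 34.6 and 31.2 CPM against 28.2, 26.8 and 25.4 CPM (-0.28 ± 0.09, FDR = 0.186), without overlap. CRELD2 gave -0.43 ± 0.15 (FDR = 0.190), the prolyl isomerase FKBP9 -0.50 ± 0.13 (FDR = 0.114) and MANF, a secreted stress protein, -0.27 ± 0.17 (FDR = 0.461). The J-domain proteins DNAJB9, which serves the IRE1 branch, and DNAJC3 stood at 0.005 ± 0.14 and -0.05 ± 0.08, and HYOU1, the nucleotide exchange factor of BiP, at -0.12 ± 0.10. The direction of DNAJB9 turned under other settings. The median of the chaperone list was -0.09.

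Cell type markers also differed between the groups, in both directions. Of all genes tested, 9.56% were higher and 9.2% lower at an unadjusted p under 0.05, and 0.176% passed the FDR. All 14 fibroblast and preadipocyte markers were listed and had negative log2 fold changes, 10 of them at an unadjusted p under 0.05 and 0 past the FDR, and their sum was 58896 to 72289 CPM in thermoneutral and 41648 to 50818 CPM in heat-stressed fat. Of 18 B cell and plasma cell markers 15 were listed, 12 with negative log2 fold changes, 8 of them at an unadjusted p under 0.05 and 0 past the FDR. Their sum ran from 538 to 751 CPM in thermoneutral and from 176 to 595 CPM in heat-stressed fat, with heat stress 1 the highest heat stress library. Negative values were also found for 14 of 14 T cell markers (10 at an unadjusted p under 0.05, 1 past the FDR) and for 14 of 16 markers of macrophages and dendritic cells (6 and 1). T cell markers summed to 210 to 224 CPM and 132 to 151 CPM, and macrophage markers to 5231 to 5666 CPM and 3326 to 5618 CPM. Endothelial markers were positive in 13 of 14 (9 at an unadjusted p under 0.05) and adipocyte markers in 12 of 14 (5 so, and 1 past the FDR). The endothelial sum was 2492 to 3181 CPM in thermoneutral and 3048 to 3669 CPM in heat-stressed fat. DESeq2 called 7 fibroblast, 3 B cell, 7 T cell and 5 macrophage markers lower and 8 endothelial markers higher. It called 4 adipocyte markers higher and 1 lower, where 9.37% of all genes were called in both directions together. Negative log2 fold changes were also found for 8 of 10 smooth muscle, 6 of 7 red blood cell and 2 of 3 skeletal muscle markers tested. The part of these cells in the chaperone values was not tested. The chaperone HSPA5 stood at -0.78 without thermoneutral 2.

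Lectin chaperones had a median log2 fold change of -0.02, with single genes on both sides. CALR (calreticulin) was at 753, 637 and 649 CPM against 619, 580.2 and 554 CPM (log2 fold change -0.22 ± 0.11, FDR = 0.333), without overlap. CANX (calnexin), the membrane-bound relative of CALR, was at 308, 291 and 261 CPM against 299, 299.8 and 308 CPM (0.08 ± 0.09). MLEC, a lectin that binds early glycans, was the 1 gene of 10 tested at an unadjusted p under 0.05 (0.43 ± 0.10, FDR = 0.0910). It was on the higher side, where 9.56% of all genes lay at that p, and DESeq2 called it. MCFD2, a cargo receptor subunit, gave -0.19 ± 0.10 (FDR = 0.370).

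Among the other disulphide isomerases and ER oxidases, 2 genes were higher and 1 lower of 18 tested at an unadjusted p under 0.05, against 9.56% and 9.2% of all genes. DESeq2 called 1 in each direction (ERO1A and GPX8). ERO1A, the oxidase that recharges disulphide isomerase, was at 25.9, 21.2 and 25.1 CPM at 22 °C and at 69.3, 33.0 and 38.6 CPM under heat. All heat stress libraries were higher and heat stress 1 stood far above the rest (0.96 ± 0.27, edgeR FDR = 0.133, DESeq2 adjusted p = 0.0126). GPX8, an ER peroxidase that consumes the peroxide ERO1A makes, was lower in every heat stress library, at 23.8, 23.5 and 20.8 CPM against 30.75, 35.4 and 39.0 CPM (-0.63 ± 0.12, edgeR FDR = 0.0675, DESeq2 adjusted p = 0.00035). TMX2, a membrane thioredoxin, gave 0.26 ± 0.11 (FDR = 0.263).

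ER-associated degradation held genes on both sides. Of 35 genes tested, 1 was higher (2.86%) and 4 lower (11.4%) at an unadjusted p under 0.05, against 9.56% and 9.2% of all genes. DESeq2 called 0. SEL1L, the scaffold of the HRD1 ubiquitin ligase, was at 102, 94.6 and 91.4 CPM against 79.9, 85.0 and 80.6 CPM (-0.23 ± 0.08, FDR = 0.177). The cofactor listed as UFD1L gave -0.21 ± 0.07 (FDR = 0.180) and NGLY1, which strips glycans from discarded proteins, -0.50 ± 0.17 (FDR = 0.179). EDEM1, a mannosidase and XBP1 target in mammals, was at 44.4, 44.8 and 41.8 CPM against 49.2, 54.2 and 46.0 CPM (0.19 ± 0.09, FDR = 0.316), higher in every heat stress library. DERL3, a retrotranslocation factor, gave -0.33 ± 0.15 (FDR = 0.296). The other two at an unadjusted p under 0.05, named after their values were seen, were VCP, the ATPase that extracts proteins, at 0.28 ± 0.10 (FDR = 0.202) and HM13 at -0.17 ± 0.07 (FDR = 0.266).

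The entry gate of the ER held the 2 pathway genes closest to the FDR threshold in edgeR, and DESeq2 called both. SPCS3, a signal peptidase subunit, was at 84.1, 79.5 and 78.2 CPM at 22 °C and at 60.2, 57.4 and 58.3 CPM under heat. Its log2 fold change was -0.46 ± 0.07 (edgeR FDR = 0.0544, DESeq2 adjusted p = 2.4e-06). SSR1, a translocon-associated subunit, was at 136, 157 and 159.9 CPM against 108, 113 and 102 CPM (-0.49 ± 0.09, edgeR FDR = 0.0665, DESeq2 adjusted p = 0.00028). Both were lower in every heat stress library. Of the 25 genes of this list tested, 4 were lower and 1 higher at an unadjusted p under 0.05, against 9.2% and 9.56% of all genes. DESeq2 called 3 lower. The higher gene was TRAM2 (0.36 ± 0.11, FDR = 0.155), and SEC61A1 (-0.25 ± 0.08) and SEC11A (-0.29 ± 0.11), named after their values were seen, were the other lower ones. In the list of ER stress cell death and ER-phagy (17 tested) TMBIM6, an ER membrane protein that limits IRE1 signalling and cell death, gave 0.39 ± 0.09 (FDR = 0.0947), at 278, 247 and 287 CPM under heat against 205, 198 and 216 CPM. FAM134A and CCPG1, receptors for ER-phagy, gave 0.33 ± 0.10 and -0.21 ± 0.09. The list had 2 genes higher and 1 lower at an unadjusted p under 0.05, against 9.56% and 9.2% of all genes. DESeq2 called 1 higher (TMBIM6, adjusted p = 0.0028) and 0 lower.

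**Figure D3:**
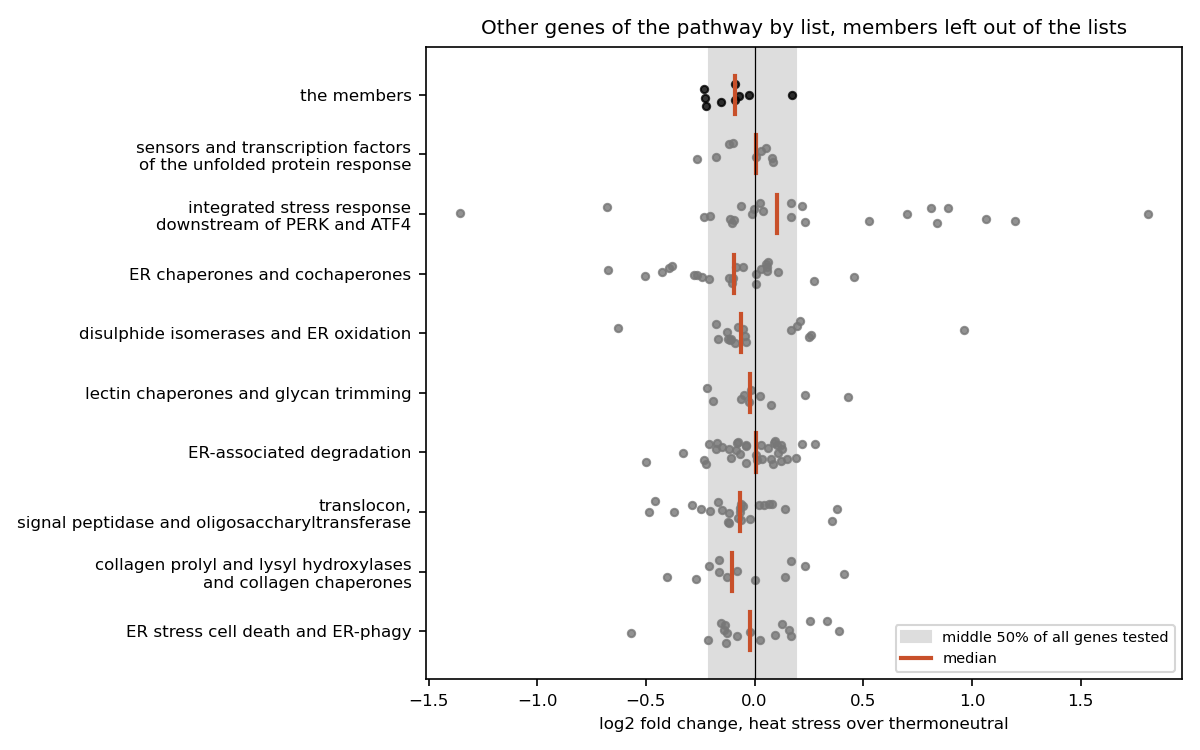
Log2 fold change (horizontal axis) of each tested gene in 9 pathway lists (grey points) and of the members (black points), with each set's median as a red bar and the middle 50% of all tested genes shaded. Medians lie between -0.11 and 0.10, and that of the members is -0.09.

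The integrated stress response list held genes that differed widely between libraries of a group and genes that did not. Its SEs ran from 0.075 (NFE2L2) to 0.72 (STC2), against a median of 0.17 for all genes tested. Of 24 genes tested, 4 were higher and 1 lower at an unadjusted p under 0.05, against 9.56% and 9.2% of all genes. DESeq2 called 3 higher (VLDLR, PSAT1 and CHAC1). The lower gene, SLC7A5, an amino acid transporter named after its values were seen, gave -0.68 ± 0.25 (FDR = 0.213). DDIT3, the death-promoting factor CHOP, was at 16.0, 5.48 and 6.40 CPM at 22 °C and at 5.91, 13.1 and 8.65 CPM under heat, a log2 fold change of -0.01 ± 0.47 whose direction turned under other settings. ATF3 was at 49.1, 20.3 and 13.0 CPM against 21.7, 46.5 and 50.5 CPM (0.53 ± 0.52, FDR = 0.635). Thermoneutral 1 was the highest thermoneutral library for both genes.

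Some genes that ATF4 is known to drive in mammals were highest in heat stress 2 and 3, and others were not. CHAC1, which breaks down glutathione, was at 0.934, 1.62 and 2.16 CPM at 22 °C and at 1.54, 5.98 and 9.10 CPM under heat (1.81 ± 0.64, edgeR FDR = 0.199, DESeq2 adjusted p = 0.0414). PSAT1, of serine synthesis, was at 3.44, 5.45 and 2.99 CPM against 5.27, 13.2 and 8.70 CPM (1.20 ± 0.39, FDR = 0.171). Heat stress 1 stayed within the thermoneutral range for both, and for ASNS (asparagine synthetase) the groups overlapped throughout, at 52.4, 62.8 and 55.6 CPM against 51.2, 63.7 and 48.9 CPM. PHGDH and MTHFD2, of serine and folate metabolism, were picked after their values were seen. PHGDH was at 2.37, 3.25 and 3.16 CPM against 2.48, 6.80 and 6.11 CPM, and MTHFD2 at 11.0, 10.7 and 8.33 CPM against 7.15, 30.1 and 25.4 CPM. Both were highest in heat stress 2 and 3, and MTHFD2 was lowest of all libraries in heat stress 1. STC2 and SESN2 of the same list, also picked after their values were seen, had negative log2 fold changes. They gave -1.35 ± 0.72 and -0.23 ± 0.26. STC2 was lowest in heat stress 2, while SESN2 was lowest in heat stress 1 (5.80 CPM). RefSeq's GRCg7b gene table gives the ID listed as SESN2 the symbol SESN4. Of the 24 genes of the list tested, 14 had positive and 10 negative log2 fold changes. VLDLR, a lipoprotein receptor listed here as an ATF4 target, and DDIT4, an inhibitor of mTOR, gave 0.70 ± 0.15 (FDR = 0.0801) and 0.84 ± 0.30 (FDR = 0.198), without overlap in CPM.

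Heat stress libraries ranked differently for folding genes and for stress response genes, a feature looked for after the values were seen. Heat stress 1 was the lowest heat stress library for 18 of 24 genes of the integrated stress response (75%), against 35.9% of all genes tested, and for 6 of 24 chaperones. ATF4, XBP1, EIF2AK3, ATF6 and P4HB shared that place, 5 of the 9 members. Heat stress 1 was instead the highest heat stress library for 14 of 24 chaperones (58.3%), against 41.4% of all genes, and for PDIA3, PDIA4 and PDIA6. Heat stress 3 was the lowest of the 3 for these isomerases. Genes of a list share the same 3 libraries, so these counts describe the libraries.

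**Figure D4:**
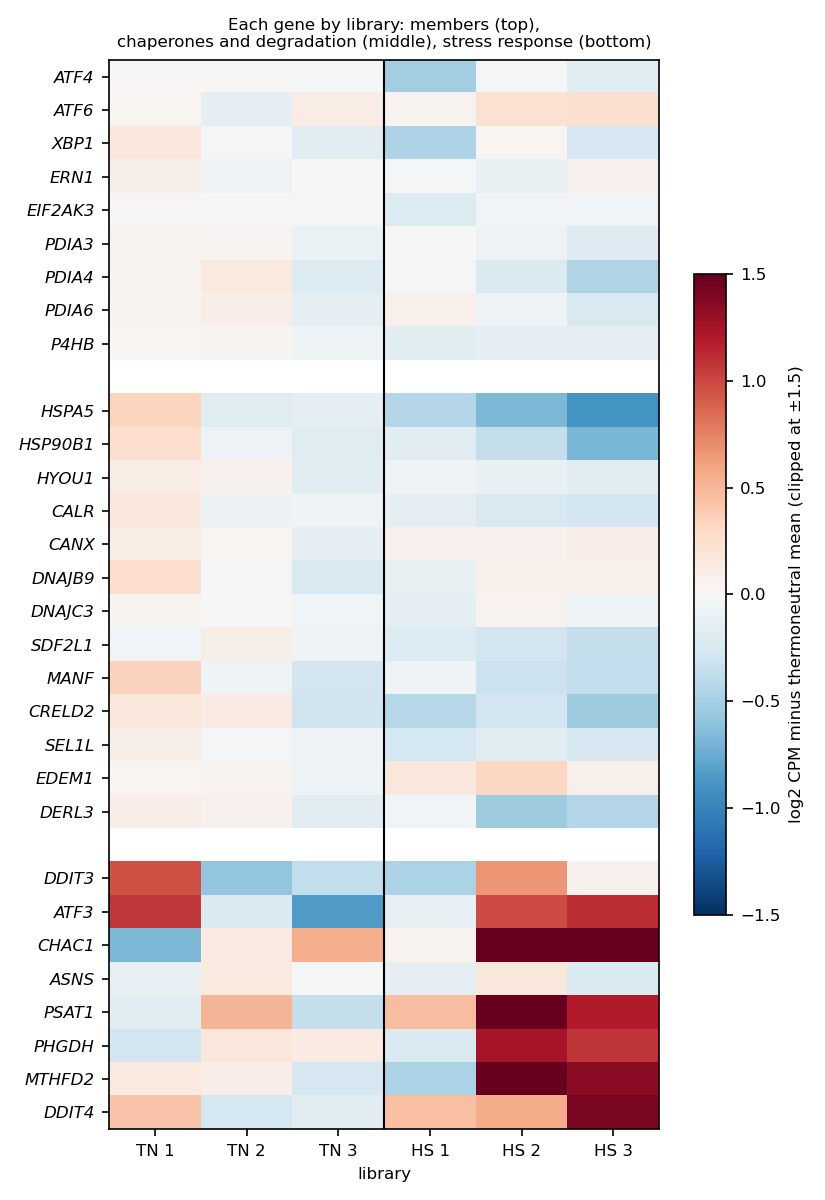
Log2 CPM of each gene minus its thermoneutral mean (colour, clipped at ±1.5) in the 6 libraries (columns). Rows are the tested members (top), selected chaperones and degradation factors (middle) and selected stress response genes (bottom). Of these, PHGDH and MTHFD2 were picked after their values were seen, and genes of the list that went the other way, such as STC2, are not drawn. ATF4 and XBP1 are bluest in heat stress 1, HSPA5 and PDIA4 in heat stress 3, and CHAC1, PSAT1, PHGDH and MTHFD2 are red in heat stress 2 and 3.

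In the authors' deposited table the adjusted p of the members, HERPUD1 apart, ran from 0.219 (P4HB) to 0.936 (ERN1). The authors' deposited table of gene ontology terms was drawn from a query of 367 genes. By its label, that query was a shorter list cut by fold size and unadjusted p. The largest deposited fold size of a tested member was 1.1747 (PDIA4). Term counts of such a list leave out changes below its cut, so they cannot decide whether the members changed by less. In the authors' deposited table the term for the unfolded protein response of the ER had 1 gene of 49, at an adjusted p of 0.845. That gene was STC2, a secreted glycoprotein, counted as lower. The broader term for ER stress had 3 genes of 158 in the authors' deposited table, at an adjusted p of 0.901.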

How the data were processed

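The submitters' processing notes name StringTie 2.1.3b, HISAT2 2.1.0, Bowtie2 2.3.4.1 and GRCg6a, with no role for each and no word on strand. Per the labels, libraries came from a stranded mRNA kit. The authors deposited read counts, FPKM and TPM for each gene, per the file headers, with signed fold scores and p-values. The lowest listed count is 1. Another 36 columns of per-library values were left unused. Titles gave group and number.

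Counts were tested with edgeR 4.0.16 (R 4.3.3): TMM, filterByExpr, quasi-likelihood F test, Benjamini-Hochberg FDR over 14743 genes. The SE is the log2 fold change's size divided by the square root of F. DESeq2 1.42.0 and limma 3.58.1 served as alternatives. With 3 against 3, an exact permutation test cannot go below p = 0.1. The edgeR step was tested on simulated data. Of 15491 gene IDs, 14044 matched RefSeq's GRCg7b table, used for symbols and transcript names only, so coordinates are not given. Promoter and protein motifs were planned and not analysed here.

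The members and lists were chosen with earlier results of these data known. The text names all members, 19 fixed genes where listed, and per list the genes past the FDR or else the 3 of smallest p. No library was a copy of another of its group: chi-square divided by its degrees of freedom was 36.1 to 103.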

Additional observations from a re-analysis of the deposited data

How the results depend on the processing

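No member passed an adjusted p of 0.05 under any of the 15 other settings run. The number of all genes called did move: 26 with all libraries, 1352 with DESeq2, 99 with library totals, 133 at 1 CPM in all libraries, 202 and 222 by limma on log2(TPM + 1) and log2(TPM + 0.1), and 3 to 35 with 1 library left out. Members at an unadjusted p under 0.05 numbered 1 with DESeq2 (P4HB, lower under heat) and 1 in each TPM fit. In the TPM fits the member of lowest adjusted p was instead the gene labelled ATF6, higher under heat. Its log2 fold change was 0.26 on log2(TPM + 1) and 0.27 on log2(TPM + 0.1). With 1 library left out such members numbered 0 to 1 (PDIA4 without heat stress 1, XBP1 without heat stress 2). Pathway genes called numbered 14 with DESeq2, 1 at 1 CPM in all libraries (SPCS3), 1 in each TPM fit (TMBIM6) and 0 to 1 with 1 library left out. Pathway genes at an unadjusted p under 0.05 numbered 30 with all libraries, 18 (without heat stress 3) to 33 with 1 library left out, and 25 to 35 under the other settings.

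The library number as a replicate block gave 95 genes, 0 members and 0 pathway genes. Deviations of same-numbered libraries correlated at 0.0784, 0.252 and 0.0356, and those of the other pairs at -0.188 to 0.109. These few values cannot decide whether the numbers pair the libraries. The labels do not state a pairing, and same-numbered libraries carry different numbers in the original library names. The numbers were therefore not taken to pair the libraries.

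Of 135 values of the members 12 turned sign, none of them called. The members' median was -0.09 with all libraries, 0.0050 on log2(TPM + 1) and 0.0051 on log2(TPM + 0.1), where the median of all genes stood at 0.076 and 0.094. On log2(TPM + 1) ERN1 stood at 0.12, EIF2AK3 at 0.0050, PDIA3 at 0.0070 and PDIA6 at 0.025, and on log2(TPM + 0.1) at 0.12, 0.0051, 0.0070 and 0.025. ERN1 was 0.033 on log2(FPKM + 1). With 1 library left out ERN1 ran from -0.071 to 0.020 and PDIA6 from -0.15 to 0.0037. Among other genes, DDIT3 turned to 0.022 with library totals, 0.10 with the replicate block, 0.17 and 0.18 on the TPM scales and 0.083 on log2(FPKM + 1). DNAJC3 turned to 0.043 on both TPM scales, and ASNS to 0.037 and 0.038. With 1 library left out DDIT3 ran from -0.35 to 0.63, ASNS from -0.18 to 0.014 and DNAJB9 from -0.10 to 0.14. HERPUD1, at 4 to 9 counts, was too low to test. The causes were not tested.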
